A study of Mus musculus with 16 samples.

Results

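Among the 48440 gene rows counted in macrophages of NOD.hALOX12 mice, 76 rows were at least 10 times higher in cells polarized with lipopolysaccharide (LPS) and interferon-γ (IFN-γ), called M1, than in unpolarized M0 cells. A row was taken when its mean over the 8 M1 libraries was at least 20 CPM (the row's count divided by the library's total count, on the usual per-million scale) and at least 10 times the mean over the 8 M0 libraries plus 0.5 CPM. Of 104 rows past both thresholds, 28 were set aside by symbol (34 named genes such as Cxcl9, Gbp2 and Nos2, and symbols ending in os), which left the 76. The rows were selected on these M1 and M0 means, the same values that measure their rise, so the M1 levels against M0 levels are given as a description, with no test. Treatment with VLX-1005 was not used in the choice, because both treatments were pooled, and it is the comparison that was tested.

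The cells were bone marrow–derived macrophages (BMDMs), which are marrow cells differentiated with macrophage colony-stimulating factor (M-CSF). They came from female NOD.hALOX12 mice aged 8 weeks, a diabetes-prone strain in which human ALOX12 takes the place of mouse Alox15, and had been cultured for 7 days in 10 ng/mL M-CSF. All groups carried this replacement. The 4 groups, of 4 libraries each, were unpolarized cells with 0.1% DMSO (M0 vehicle), unpolarized cells with 10 µM of the 12-lipoxygenase inhibitor VLX-1005 (M0 VLX-1005), and polarized cells with either treatment (M1 vehicle, M1 VLX-1005). According to the methods, polarization lasted 18 hours, with LPS at 10 ng/mL and IFN-γ at 25 ng/mL, and followed 1 hour with vehicle or inhibitor, while a drawing of the design shows a longer polarization, so the time is uncertain. Whether a group's libraries stem from different mice is not stated, so the spread behind each p-value may be technical.

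LPS engages TLR4 and drives NF-κB and interferon regulatory factors, which switch on inflammatory genes and type I interferon. IFN-γ acts through its receptor and JAK kinases, and promoters of interferon-inducible genes often carry a gamma-activated site (GAS) or an interferon-stimulated response element (ISRE). In macrophages both signals together are the classical recipe for the M1 state, with its guanylate-binding proteins, antigen presentation and secretion of cytokines.

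Library totals ran from 939584 to 1158095 counts. These are counts assigned to rows, called depth below, and not numbers of reads sequenced. In each library, 96.3% to 97.2% of the counts lay in 8460 rows (17.5% of the table) with exon bases that another gene uses on the other strand, and no source used here gives the strand setting of the counting. The strand that a count came from is therefore not known, and a value is that of the row. For a row with such a partner, whether its counts come from the named gene or from the gene on the other strand cannot be told. The libraries were strand-specific, so the open point is which strand the counting assigned to a row. For rows without shared exons, among them Tnfrsf8, C3 and Nelfe, whether RNA of the named gene was counted was not tested either. The summed level of 8 macrophage marker rows was 358 to 425 CPM in M0 and 229 to 287 CPM in M1. The row of Hmgxb3, opposite the macrophage marker Csf1r, was at 223 to 285 CPM in M0 and 22.6 to 37.2 CPM in M1. Rows of all 6 neutrophil markers were at 0 in every library, Gm11505, opposite the neutrophil marker Mpo, was at 0 to 9.43 CPM in M0 and at 0 in M1, and the T cell, B cell and fibroblast lists stayed at or below 3.57 CPM. With the strand setting unknown, a marker row at or near 0 does not show that a cell type was absent, and the sums are not read as cell content. On the second principal component, which held 0.935% of the variance, 3 M0 libraries were set apart (vehicle 2 at −4.07, vehicle 3 at −8.29 and VLX-1005 3 at −7.63, against 2.20 to 5.85 for the other M0 libraries).

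Promoter stretches of 4 of the genes and of 1 gene on the other strand from a member are printed here, because each holds a match to a motif of interferon or NF-κB signaling. The sequences are RefSeq promoters on GRCm38.p6, 5′ to 3′ on the strand of the gene, with the match in capitals. The Ifit1 stretch (chr19:34640765-34640833, plus strand) holds 2 ISRE matches, the Gbp7 stretch (chr3:142530210-142530312, plus strand) holds 2 GAS matches and 1 ISRE match, and the Phf11b stretch (chr14:59341351-59341400, minus strand) and the Slamf8 stretch (chr1:172590569-172590603, minus strand) hold 1 ISRE match each. H2-Q4 (chr17:35379423-35379472, plus strand), the gene on the other strand from Gm11131, holds 1 match to the κB motif.
Ifit1: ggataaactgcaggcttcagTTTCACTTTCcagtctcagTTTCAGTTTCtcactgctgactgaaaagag
Gbp7: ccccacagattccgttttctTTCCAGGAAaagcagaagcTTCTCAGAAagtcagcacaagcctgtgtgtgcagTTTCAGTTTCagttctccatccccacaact
Phf11b: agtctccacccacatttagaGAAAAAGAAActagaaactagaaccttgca
Slamf8: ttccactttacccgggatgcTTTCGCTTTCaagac
H2-Q4: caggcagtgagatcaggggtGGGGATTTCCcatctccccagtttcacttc
The motifs searched on both strands, from 250 bases before to 50 bases after a start, were GAAA, any 2 bases and GAAA for the ISRE, TTC, any 3 bases and GAA for GAS, and GGG, any 2 bases and TTTCC for κB. Overlaps between motifs were allowed. Of the 76 members, 41 had a RefSeq promoter, and 5 of these (12.2%) held an ISRE match, against 3.99% of all 27025 genes with a RefSeq promoter. Those genes were not limited to the rows tested here. GAS matches were in 5 of 41 (12.2%, against 9.55% of all genes) and κB matches in 2 of 41 (4.88%, against 1.90%). The ISRE match of Gm11127 is not printed. Among 28 genes that share exons with a member on the other strand, 2 held an ISRE match (7.14%) and 3 a GAS match (10.7%). The 1 κB match among them (3.57%) was that of H2-Q4. Rnf213, Pnp, Slamf7 and Pim1, opposite abundant members, held no match. At least 1 of the motifs was in 24.4% of the 41 member promoters, 17.9% of the 28 genes and 14.5% of all genes, so most promoters held none. A match is a description of the letters and not of binding.

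The rows spanned 3 orders of magnitude in M1, with 6 at 1000 CPM or more and 23 from 100 to 1000 CPM, and the rest below. At the fold threshold, A930037H05Rik (10.2 times the M0 mean plus 0.5 CPM), 6530409C15Rik (10.2) and Gm11127 (10.4) lay just inside, and Phip (9.91), Gm12185 (9.82) and Gm43126 (9.78) just outside. At the CPM threshold, Gm10558 (20.1 CPM) and Eml2 (20.9 CPM) lay just inside, and Thbs1 (18.9 CPM) and Ifi204 (17.5 CPM) just outside. The plot of M1 against M0 means shows the 76 rows along the upper left edge of all rows tested.

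**Figure D1:**
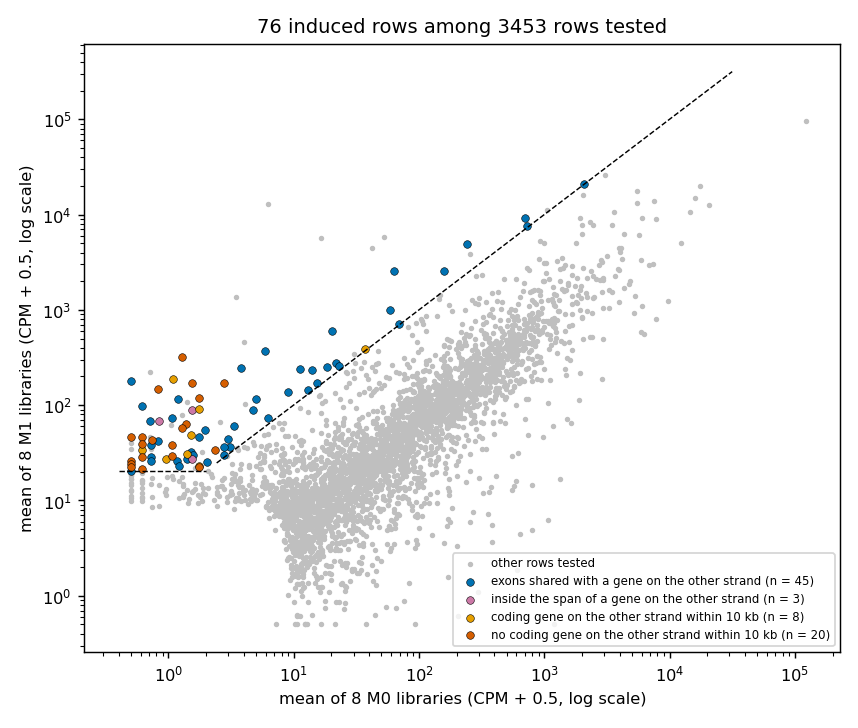
Mean of the 8 M1 libraries against the mean of the 8 M0 libraries for each of 3453 rows tested (CPM + 0.5, log scales). Coloured points are the 76 rows, by their relation to a gene on the other strand, and the dashed line is the rule of at least 20 CPM and at least 10 times the M0 mean plus 0.5 CPM. Grey points past the line are the rows set aside by symbol. Of the coloured points, 45 share exons with a gene on the other strand, among them all 6 at 1000 CPM or more. Points keyed as inside the span of a gene on the other strand are rows that overlap its span in any way, without shared exon bases.

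The most abundant row was A930037H05Rik (chromosome 11, 119448788 to 119491298, minus strand, mm10), a noncoding transcript that shares 1476 exon bases with Rnf213, which encodes a large interferon-induced ubiquitin ligase. It was at 18853, 19269.9, 23525 and 25445 CPM in M1 vehicle libraries 1 to 4 and at 20139, 15827, 24217 and 21345 CPM in M1 VLX-1005 libraries 1 to 4, against 1814 to 2364 CPM (median 2029) in M0. M1 vehicle 4 was the highest and M1 VLX-1005 2 the lowest of the M1 libraries, and the 2 treatments overlapped. The row of Rnf213 itself was at 22.7 CPM in M1. In bulk RNA, more cells that express a row and more RNA of it per cell cannot be told apart.

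Gm38316 (chromosome 14, 50950559 to 50952004, minus strand) shares 356 exon bases with Pnp, purine nucleoside phosphorylase, an enzyme of purine salvage. Its level was 9840.1, 8823, 9489 and 8953 CPM with vehicle and 9813, 9061, 8899 and 9123 CPM with VLX-1005 in M1, against 654 to 782 CPM (median 686) in M0. The 8 M1 libraries were close together, with a coefficient of variation (CV) of 4.42%. Per kb of exon it was the highest of the 76 rows, at 19723 CPM per kb, against 2321 CPM per kb for A930037H05Rik. Levels per kb were taken over all exon bases of a row, shared or not.

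Gm11131 (chromosome 17, 35377021 to 35380292, minus strand) lies opposite H2-Q4, a class I major histocompatibility gene of antigen presentation, and shares 496 exon bases with it. Gm11131 was at 8279.8, 7374, 7351 and 7698 CPM with vehicle and 7755, 7304, 7542 and 7946 CPM with VLX-1005 in M1, against 554 to 879 CPM (median 722) in M0. All M1 libraries lay far above all M0 libraries, and M1 vehicle 1 was the highest. The H2-Q4 row was at 85.3 CPM in M1 and 12.4 CPM in M0.

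Gm29233 (chromosome 2, 118123451 to 118124047, minus strand) shares 208 of its 281 exon bases with Thbs1, thrombospondin 1, a secreted matrix glycoprotein. Its M1 values were 4058, 5110.4, 5067 and 5028 CPM with vehicle and 4142, 5614, 5545 and 4569.6 CPM with VLX-1005, against 165 to 274 CPM (median 253) in M0. Replicate 1 was the lowest library of both M1 groups. The Thbs1 row was at 0.116 CPM in M0 and 18.9 CPM in M1, just outside the CPM threshold. Per kb of exon, Gm29233 reached 17409 CPM, second to Gm38316.

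Gm37787 (chromosome 1, 171634879 to 171636022, plus strand) shares 423 exon bases with Slamf7, a SLAM family receptor of activated leukocytes. It was at 2631, 2308, 2795 and 2528 CPM with vehicle and 2689, 2128, 2614 and 2739 CPM with VLX-1005 in M1, against 43.7 to 83.4 CPM (median 64.4) in M0. The pooled M1 to M0 ratio was 40.8 (95% counting interval 37.5 to 44.4), the steepest of the 6 most abundant rows. This interval covers counting error only, and neither the spread between libraries nor the choice of the row by the same ratio. Gm26885 (chromosome 17, 29446919 to 29491925, minus strand) shares exon bases with AC163629.2 (2302 bases) and with Pim1 (488 bases), a cytokine-induced serine/threonine kinase. Gm26885 was at 2676, 2450.4, 2598 and 2518 CPM with vehicle and 2647, 2255, 2594 and 2673 CPM with VLX-1005 in M1, against 126 to 192 CPM (median 159) in M0. For Gm37787 and Gm26885 alike, M1 VLX-1005 2 was the lowest M1 library.

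Below 1000 CPM, Numa1 (chromosome 7, 101934111 to 102014964, plus strand), a spindle pole protein, was the first row. It shares 80 of 7919 exon bases with Il18bp, the secreted inhibitor of interleukin-18. Numa1 was at 952, 966, 1074 and 1027 CPM with vehicle and 981, 976, 966 and 1004 CPM with VLX-1005 in M1, against 43.2 to 75.3 CPM (median 60.1) in M0. The Il18bp row had the opposite order, with 134 CPM in M0 and 40.7 CPM in M1. With the strand setting unknown, these are directions of the rows, and which of the genes rose or fell was not tested. Of all 76 rows, Numa1 had the lowest CV over the M1 libraries, 4.07%, beside a counting CV (the CV that Poisson counting alone would give) of 3.13%.

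6530409C15Rik, opposite the zinc finger gene Zfp800 (119 shared bases), was at 604, 692, 760.0 and 755 CPM with vehicle and 724, 645, 710.1 and 769.6 CPM with VLX-1005 in M1, against 59.5 to 87.7 CPM (median 66.2) in M0. Gm20481 shares all 564 of its exon bases with Hspa1a, an inducible chaperone of the HSP70 family. Its M1 values were 661, 733, 504 and 548 CPM with vehicle and 598, 749, 517 and 447 CPM with VLX-1005, against 11.04 to 26.9 CPM (median 20.1) in M0. Replicate 2 was the highest library of Gm20481 in both treatments, and the Hspa1a row held 1 count over all 16 libraries. Perm1, known as a regulator of mitochondrial genes in muscle, lies 149 bases from Plekhn1 on the other strand and was at 357 to 428 CPM in M1 and 25.04 to 46.3 CPM (median 37.4) in M0. The Plekhn1 row was at 0.740 CPM in M1, and which of the genes the counts of the Perm1 row come from was not tested. C130026I21Rik shares exons with A530040E14Rik and Gm16028, and its 302 to 434 CPM in M1 stood beside 222 CPM for the A530040E14Rik row.

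Tnfrsf8 (chromosome 4, 145267137 to 145315164, minus strand), which encodes the TNF receptor family member CD30, had no coding gene on the other strand within 10 kb and was the most abundant of 20 such rows. It was at 297, 368, 329 and 284 CPM with vehicle and 325, 348, 264 and 329 CPM with VLX-1005 in M1. The 8 M0 libraries together held 7 counts of it, for a pooled ratio of 398 (95% counting interval 193 to 990). Every M0 library was below 1 CPM.

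The heat map of all 76 rows shows the same step between M0 and M1 in every library. In each of the 76 rows the lowest M1 library was above the highest M0 library, as in 16% of all rows tested. The rule selects for this, and nothing is read from it.

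**Figure D2:**
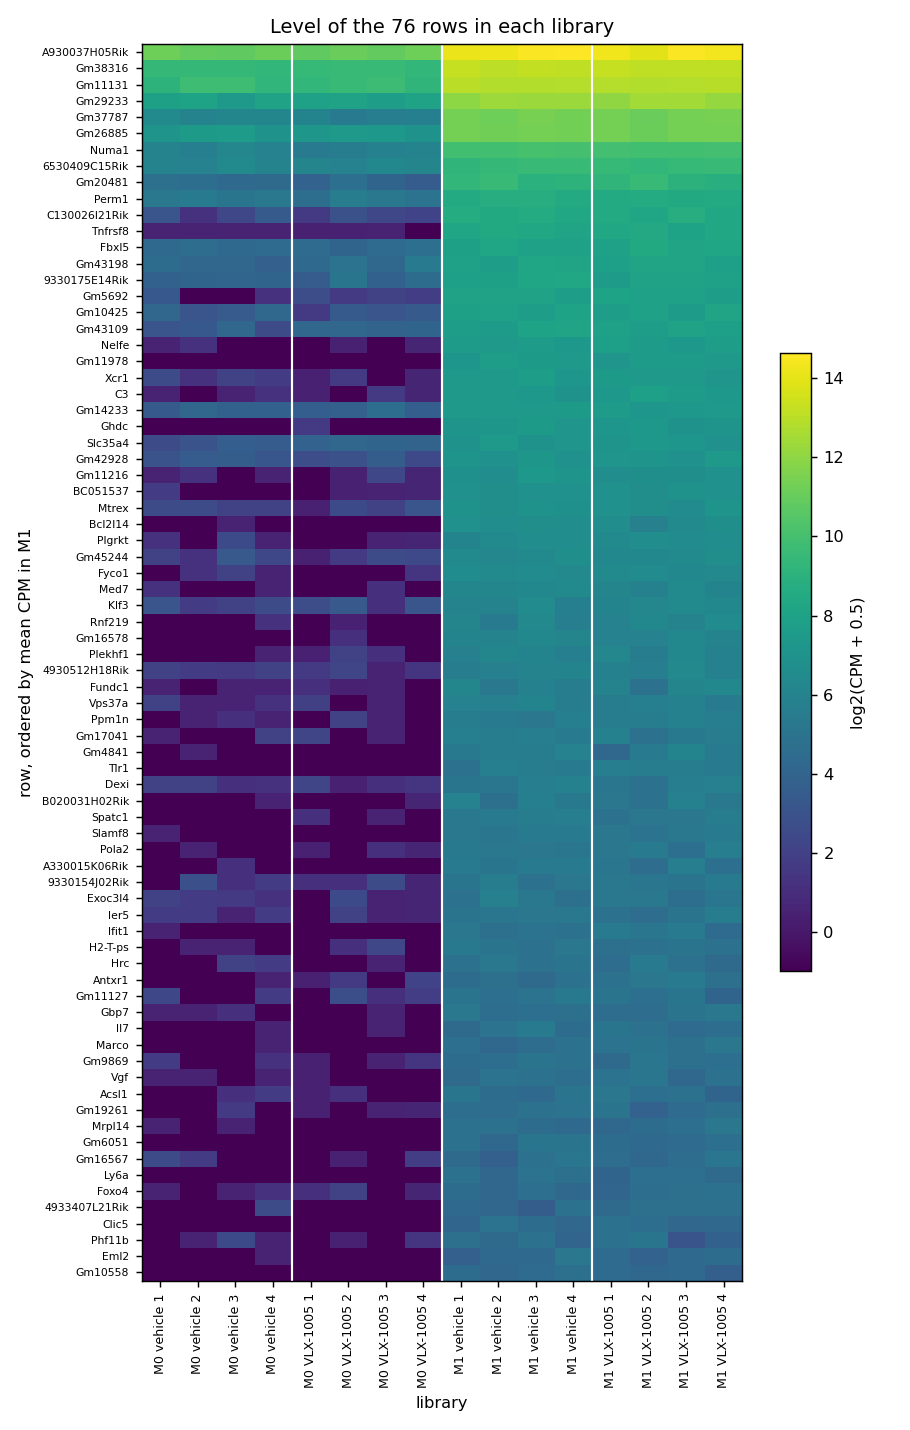
Level of the 76 rows (ordered by mean CPM in M1, top to bottom) in each of the 16 libraries, as log2(CPM + 0.5) in colour. White lines part the 4 groups. The 8 M1 columns are brighter than the 8 M0 columns in every row, and the lower rows are at or near 0 CPM in M0.

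From a list of 88 antiviral interferon-stimulated genes, 27 had a row tested, and 4 of the rows past both thresholds had been set aside by symbol (Cmpk2, Ifit2, Oasl1 and Rsad2). By their own symbol or by a gene on the other strand, 4 members belonged to it (A930037H05Rik by Rnf213, Gm5692 by Ms4a4c, Ifit1 and Phf11b). For this and the following lists, the number with a row tested counts only the own rows of list genes. Members that belong only by a gene on the other strand are not among those rows, so that number is no denominator for them. How many of all rows tested belong to a list through the other strand was not counted. Ifit1, which binds viral RNA, was at 36.02, 26.8, 30.3 and 28.5 CPM with vehicle and 42.7, 34.1, 45.2 and 21.5 CPM with VLX-1005 in M1, and the M0 libraries held 1 count in all. Phf11b, a PHD finger gene, was at 26.8, 20.6, 28.5 and 16.6 CPM with vehicle and 28.5, 32.99, 7.87 and 13.7 CPM with VLX-1005, and had the highest CV of the 76 rows (39.6%, beside a counting CV of 21.1%). M1 VLX-1005 3 and 4 were its lowest M1 libraries, and the treatments overlapped.

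Gbp7, a guanylate-binding protein, was the 1 member from a list of 26 IFN-γ-induced GTPases (11 with a row tested), from which Gbp2 and Gbp5 had been set aside by symbol. Its M1 values were 37.1, 24.8, 25.7 and 26.7 CPM with vehicle and 24.05, 23.4, 31.5 and 38.2 CPM with VLX-1005, against 0 to 1.77 CPM (median 0.446) in M0, and libraries of both treatments mixed. The promoter printed above holds its GAS and ISRE matches. Gm5692, a pseudogene row, shares a stretch of only 28 bases with Ms4a4c, a membrane-spanning 4A family member (chr19:11404770-11404797, minus strand, GRCm38), printed to show its length, with no base in capitals.
Gm5692 and Ms4a4c: cactttaaccaacagacacatcagctac
Gm5692 was at 258, 257, 253 and 221 CPM with vehicle and 272, 246, 251 and 214 CPM with VLX-1005 in M1, against 0 to 9.27 CPM (median 2.82) in M0. The Ms4a4c row was at 17.1 CPM in M1. Replicate 4 was the lowest library of both M1 groups.

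Surface receptors and adhesion molecules gave 5 members from a list of 65 genes (13 with a row tested): Gm37787 by Slamf7, Gm43109 by Vcam1, Slamf8, Marco and Ly6a. Gm43109, which shares 61 exon bases with the adhesion molecule gene Vcam1, was at 205, 191, 273 and 274 CPM with vehicle and 248, 215, 252 and 224 CPM with VLX-1005 in M1, against 5.66 to 17.7 CPM (median 15.6) in M0. Slamf8, a SLAM family member of myeloid cells, was at 38.1, 35.1, 40.4 and 45.1 CPM with vehicle and 36.5, 30.9, 37.4 and 42.1 CPM with VLX-1005 in M1, and 1 count stood in all M0 libraries together. Its M1 libraries varied by no more than counting error (CV 11.5%, counting CV 15.9%). Ly6a, which encodes the surface protein Sca-1, ranged from 16.03 to 30.3 CPM in M1 and was at 0 in every M0 library.

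Other receptor genes stood outside that list. Tlr1, which pairs with TLR2 to sense bacterial lipopeptides, was at 29.8, 52.6, 47.8 and 45.1 CPM with vehicle and 51.7, 48.96, 46.2 and 41.1 CPM with VLX-1005 in M1, and at 0 in every M0 library. With a floor of 3 counts over the M0 libraries, Tlr1 was at least 133-fold higher in M1. Xcr1, the receptor of the chemokine XCL1 and a marker of cross-presenting dendritic cells, was at 141 to 212 CPM in M1 and 0 to 5.56 CPM (median 2.24) in M0. The summed level of the 5 dendritic cell markers was 4.02 to 10.6 CPM in M0 and 141 to 214 CPM in M1, nearly all of the M1 sum being Xcr1, while the rows of Flt3, Siglech and Zbtb46 were at 0 in every library. Here too, a row at 0 does not show that a cell type was absent. Plgrkt, a plasminogen receptor, lies 65 bases from Cd274, which encodes PD-L1, on the other strand, and was at 65.9 to 100.3 CPM in M1 and 0 to 5.32 CPM (median 0.917) in M0. The Cd274 row was at 107 CPM in M1, and which of the genes the counts of the Plgrkt row come from was not tested.

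A list of 37 transcription factor and chromatin genes (8 with a row tested) gave 2 members, both through the other strand. Here 9330175E14Rik lies opposite Nlrc5, the transactivator of class I genes, with 78 shared bases, and Dexi lies opposite Ciita, the transactivator of class II genes, with 329. The 9330175E14Rik row was at 223, 240.5, 291 and 318 CPM with vehicle and 202, 254, 256 and 246 CPM with VLX-1005 in M1, against 11.2 to 33.2 CPM (median 15.9) in M0. Dexi was at 33.96, 35.1, 51.5 and 57.05 CPM with vehicle and 34.7, 27.7, 50.2 and 56.8 CPM with VLX-1005, against 0.874 to 4.32 CPM (median 1.95) in M0. In both treatments, replicates 3 and 4 of Dexi were above replicates 1 and 2.

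Negative regulators gave 2 members from a list of 33 (3 with a row tested), both through the other strand. They were Gm26885 by Pim1, and Gm17041, all 479 exon bases of which are shared with Cish, a STAT5-induced inhibitor of cytokine receptors. Gm17041 was at 52.5, 46.4, 50.5 and 45.1 CPM with vehicle and 57.9, 27.7, 40.3 and 49.9 CPM with VLX-1005 in M1, against 0 to 4.32 CPM (median 0.446) in M0. M1 VLX-1005 2 was its lowest M1 library. The Cish row held 3 counts over all 16 libraries. Antigen processing gave 1 member of 33 genes (11 with a row tested), Gm11131 by H2-Q4, and Tap1 and H2-M3 had been set aside by symbol. Cytokines and growth factors gave 1 of 36 (4 with a row tested), Numa1 by Il18bp, and Il1b had been set aside. The list of 18 chemokines (5 with a row tested) gave no member, but Cxcl9 and Ccl5 were past both thresholds and were left out by symbol. The list of 24 cell death genes (3 with a row tested) gave none.

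A list of 47 metabolism, redox and transport genes (19 with a row tested) gave 3 members, the complement gene C3, Acsl1, and Gm45244 by Acsl1. C3 (chromosome 17, 57203970 to 57228136, minus strand), the central complement component, was at 168, 175, 164 and 129 CPM with vehicle and 159, 229.9, 189.8 and 162 CPM with VLX-1005 in M1, against 0 to 2.68 CPM (median 0.906) in M0. M1 VLX-1005 2 was the highest library and M1 vehicle 4 the lowest. Nelfe, a subunit of the negative elongation factor, lies 2 bases from Cfb, complement factor B, on the other strand, and was at 191, 169, 189 and 162 CPM with vehicle and 231, 199, 164 and 207 CPM with VLX-1005 in M1. The Cfb row was at 1.17 CPM in M1. Nelfe and Cfb share no exon bases, and which of the genes the counts of the Nelfe row come from was not tested.

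Acsl1, a long-chain acyl-CoA synthetase, and Gm45244 on the other strand share 1039 exon bases, and both were among the 76 rows. Gm45244 was at 84.4, 76.4, 83.6 and 112 CPM with vehicle and 77.5, 76.6, 87.5 and 107 CPM with VLX-1005 in M1, against 0.863 to 9.75 CPM (median 4.21) in M0. Acsl1 was at 32.9, 22.7, 20.2 and 31.3 CPM with vehicle and 36.5, 25.5, 29.5 and 15.7 CPM with VLX-1005, against 0 to 2.83 CPM (median 0.432) in M0. Gm45244 was highest in M1 vehicle 4 and Acsl1 in M1 VLX-1005 1. Gm10425 and Exoc3l4, which share 888 exon bases, were the other pair with both rows among the 76, at 203 to 275 CPM and 24.6 to 55.7 CPM in M1.

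Levels of the rows and of their partners were far apart in most pairs, as the plot of row pairs shows. Of the 45 rows that share exons with a gene on the other strand, 41 had a row for that gene (the one with the most shared bases). The induced row was above its partner in 35 of 41 pairs (85.4%), and over 100 times above it in 15 (36.6%). The rule asked for a high M1 level of the induced row and not of its partner, and for the other rows tested with at least 20 CPM in M1 the shares were 86.4% and 32.9% of 1789 pairs. The partner was below 1 CPM in M1 in 16 pairs and at 0 in all libraries in 3. The shared stretch ran from 1 to 2302 bases (median 329), and in 13 rows it was under 5% of the exon bases. In 6 pairs the partner was at or above the induced row, among them Med7, a Mediator subunit (57.5 to 86.5 CPM, beside 503 CPM for 2310031A07Rik), and Mrpl14, a mitochondrial ribosomal protein (17.8 to 36.2 CPM, beside 250.1 CPM for Tmem63b).

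**Figure D3:**
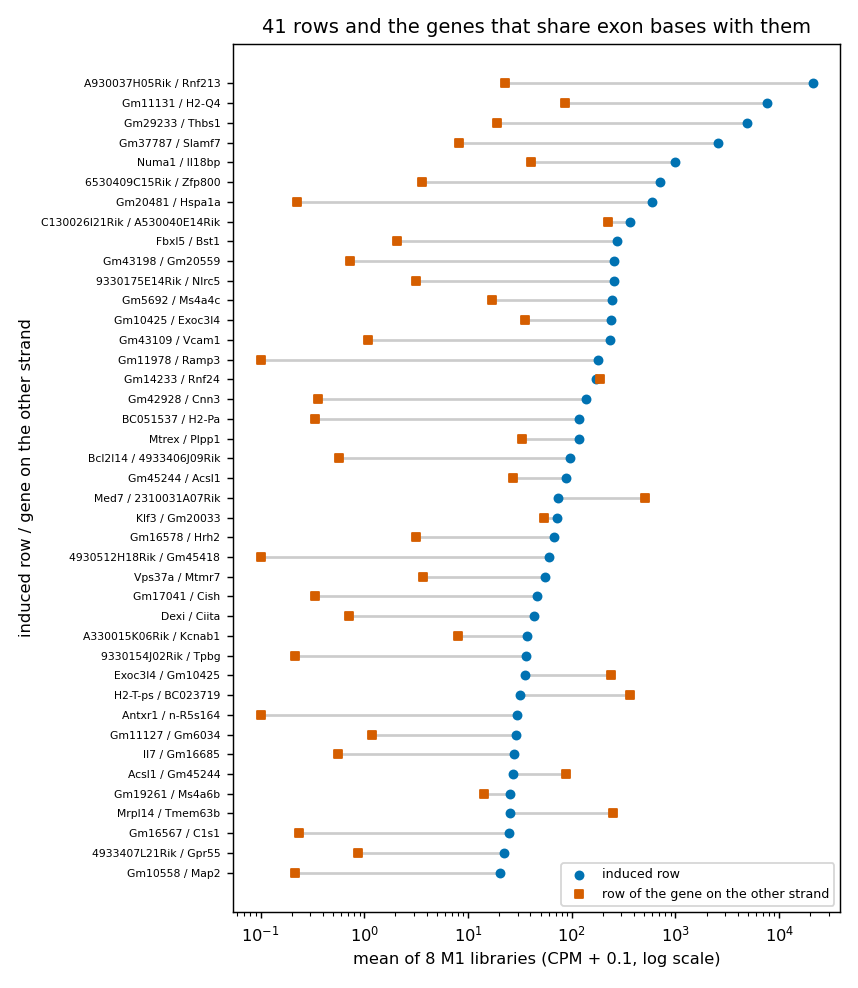
Mean of the 8 M1 libraries (CPM + 0.1, log scale) for 41 induced rows (circles) and for the row of the gene that shares most exon bases with each on the other strand (squares), joined by a line. The circle lies to the right of the square in 35 of 41 pairs.

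The 45 rows that share exons with a gene on the other strand held 95.6% of the summed M1 level of the 76 rows. A further 3 rows share no exon bases with a gene on the other strand but overlap its span. Another 8 have a coding gene on that strand within 10 kb, and 20 have none. Per kb of exon, the median level in M1 was 42.8 CPM for the 45 rows and 15.3 CPM for the 20. Each level was divided by all exon bases of the row, shared or not, and the median shared part in the 45 rows was 14.1%. Levels per kb of shared bases were not computed. Rows with shared exons made up 59.2% of the 76 rows, 80.1% of the rows tested and 90.2% of the 2055 rows with at least 20 CPM in M1. Protein-coding genes made up 60.5% of the 76 rows, 62.7% of the rows tested and 55.3% of those 2055 rows. Chromosome 17, which carries the mouse major histocompatibility complex, held 10 of 76 rows (13.2%), against 5.1% of rows tested. How many of the 10 lie in that complex was not counted. Chromosome 19 held 5 rows (6.58%, against 3.42%) and chromosome 8 held 6 (7.89%, against 5.71%).

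In M0 most of the rows were close to 0. There were 54 rows with under 10 counts in every M0 library, 14 with 1 to 3 counts over the 8 M0 libraries and 6 with none. The 6 were Gm11978, Tlr1, Gm6051, Ly6a, Clic5 and Gm10558. Gm11978, a pseudogene row that shares 101 bases with Ramp3, a receptor activity-modifying protein, was at 150.3, 205, 183 and 177 CPM with vehicle and 144, 202, 202 and 179 CPM with VLX-1005 in M1, at least 525-fold above the floor of 3 counts over the M0 libraries. For the other 5 the same bound was 133-fold for Tlr1, 74.0-fold for Gm6051, 69.3-fold for Ly6a, 64.4-fold for Clic5 and 59.0-fold for Gm10558. Intervals and floors cover counting error only. Over the 76 rows, the median of log2 ratios of M1 to M0 means (each plus 0.5 CPM) was 4.82. With TMM library sizes it was 5.20, and without the added 0.5 CPM those sizes raise every log2 ratio of M1 to M0 by 0.49.

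Summed over the 76 rows, M1 libraries held 5.72% ± 0.351 of their counts with vehicle and 5.58% ± 0.379 with VLX-1005 (SD, n = 4 each), and M0 libraries 0.433% ± 0.00851 and 0.433% ± 0.0252. The single row A930037H05Rik took 1.58% to 2.54% of a library's counts in M1. Without it, the sums lay between 34574 and 36265 CPM in all 8 M1 libraries. Its CV was 15.2% over the M1 libraries, against a counting CV of 0.678%. For the 76 rows the median CV was 16.7% and the median counting CV 12.5%, and 11 rows varied by no more than counting error. After Phf11b, the most variable rows over the M1 libraries were Eml2, a microtubule-binding protein (13.4 to 35.9 CPM, CV 32.5%), and Gm4841 (17.8 to 65.9 CPM, CV 32.0%).

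**Figure D4:**
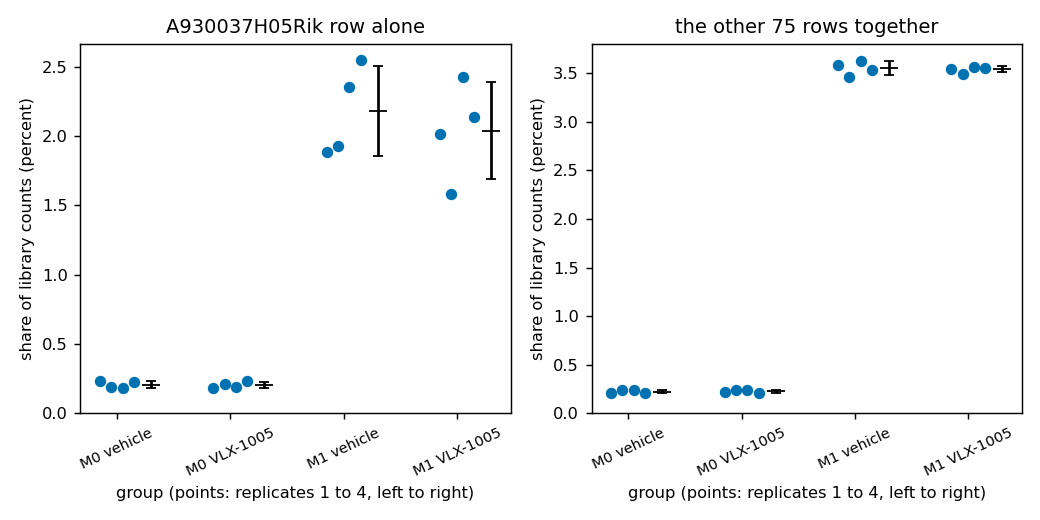
Share of a library's counts in the A930037H05Rik row (left) and in the other 75 rows together (right), in percent, for the 4 groups. Points are replicates 1 to 4 from left to right, and the bar is the mean with its SD (n = 4). The M1 points of A930037H05Rik spread from 1.58% to 2.54%, while those of the other rows stay between 3.46% and 3.63%.

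No difference between VLX-1005 and vehicle was detectable in these rows in M1 cells at this depth. In the test of M1 VLX-1005 against M1 vehicle (edgeR's quasi-likelihood test, Benjamini-Hochberg adjustment over 3453 rows), 0 of the 76 rows passed an adjusted p of 0.05, and 0% of all rows did. At an unadjusted p under 0.05 the count was 0 of 76, against 3.71% of all rows. DESeq2 and limma-voom also gave 0 of 76 at either threshold. The 4 libraries of each treatment overlapped in all 76 rows, while 1.13% of all rows were higher and 1.01% lower without overlap. The median log2 difference was −0.02 (quartiles −0.13 and 0.06) over the 76 rows, above 0 without M1 vehicle 3 (0.0057) or M1 VLX-1005 2 (0.014), and −0.0032 (quartiles −0.13 and 0.13) over all rows. The log2 difference was above 0 in 30 of the 76 rows, against 49.3% of all rows. A fold change over 2 with an unadjusted p under 0.05 was found in 0 of 76 rows, against 1.25% of all rows.

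The 6 rows with the smallest p lay in both directions. Fbxl5, an iron-sensing F-box protein whose row shares 98 bases with the ectoenzyme gene Bst1, was at 241, 292, 251 and 248 CPM with vehicle and 243, 361, 275 and 287 CPM with VLX-1005 (log2 difference 0.18, SE 0.11, adjusted p = 0.998). M1 VLX-1005 2 was the highest library, and the rest overlapped. Antxr1, an anthrax toxin receptor, was at 22.6, 26.8, 21.1 and 29.4 CPM with vehicle and 29.4, 36.2, 43.3 and 26.4 CPM with VLX-1005 (log2 difference 0.44, SE 0.30, adjusted p = 0.998). Marco, a scavenger receptor of macrophages, was at 25.7, 18.6, 23.9 and 29.4 CPM with vehicle and 30.3, 31.9, 26.6 and 36.2 CPM with VLX-1005 (log2 difference 0.36, SE 0.26, adjusted p = 0.998). In both, 1 or more vehicle libraries reached the VLX-1005 range. For C3 the log2 difference was 0.22 (SE 0.16) and for Nelfe 0.17 (SE 0.15), with the library values given above and the same adjusted p of 0.998. Bcl2l14, a member of the BCL2 family, was at 119, 101, 104 and 99.4 CPM with vehicle and 102, 55.3, 84.6 and 109 CPM with VLX-1005 (log2 difference −0.26, SE 0.20, adjusted p = 0.998), and M1 VLX-1005 2 was its lowest library. Leaving out a single library changed 5 of these 6 differences by over 1.5 times. Without M1 VLX-1005 2 the log2 difference was 0.07 for Fbxl5, 0.11 for C3 and −0.09 for Bcl2l14. It was 0.12 for C3 without M1 vehicle 4, 0.29 for Antxr1 without M1 VLX-1005 3 and 0.09 for Nelfe without M1 VLX-1005 1.

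Among the 29 rows at 100 CPM or more in M1, the log2 differences lay between −0.22 and 0.22, with SEs of 0.06 to 0.20. The rows below 100 CPM had wider errors, as the plot of differences shows. Rows of low counts could hide larger differences at this depth.

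**Figure D5:**
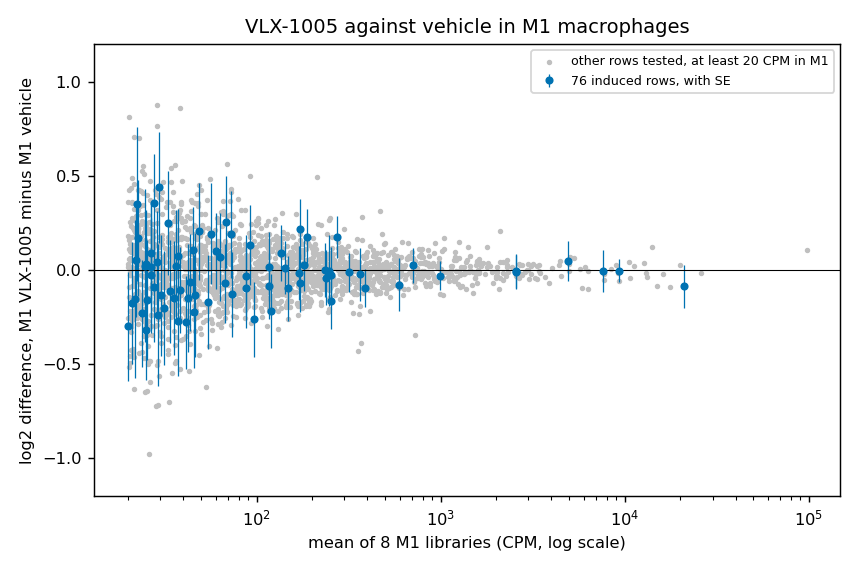
Log2 difference of M1 VLX-1005 minus M1 vehicle (edgeR) against the mean of the 8 M1 libraries (CPM, log scale) for the 76 rows (points with SE) and for the other rows tested with at least 20 CPM in M1 (grey). The 76 rows lie between −0.32 and 0.44, around 0, within the cloud of the other rows.

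In M0 cells VLX-1005 against vehicle gave 0 of 76 rows past an adjusted p of 0.05 (0% of all rows, edgeR). The rows had been chosen for a low M0 level and entered the test through their M1 level, with 54 of them under 10 counts in every M0 library, so counts at an unadjusted p are given with nothing read from them. At an unadjusted p under 0.05 there were 14 of 76 rows (7 without M0 vehicle 3 or 4), and 2.98% of all rows. DESeq2 gave 10 and limma-voom 1. A fit of only the M0 libraries could test 17 of the 76 rows and gave 2, with 84 of its 3056 rows in all. A fold change over 2 with an unadjusted p under 0.05 was found in 8 of 76 rows (0.782% of all rows), which fell to 3 without M0 vehicle 3. Of the 14 rows, 8 had 3 to 20 counts over the 8 M0 libraries. One row did not overlap between the treatments, against 1.51% of all rows that were higher and 1.04% that were lower without overlap. This was Slc35a4, of the nucleotide sugar transporter family, which shares 152 exon bases with Apbb3 and was named after its values were seen. It was at 5.56, 7.42, 12.4 and 11.3 CPM with vehicle and 14.7, 17.5, 16.1 and 15.1 CPM with VLX-1005, and its p, the smallest of the 76 rows, was 0.00589 unadjusted and 1 adjusted (edgeR).

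Whether the rise from M0 to M1 differed between treatments was tested as an interaction. None of the 76 rows passed an adjusted p of 0.05 (0% of all rows, edgeR). The test includes the M0 difference of the same low rows, and nothing is read from the counts at an unadjusted p. These were 11 of 76 rows (4.29% of all rows), and 6 with a fold change over 2 as well (2.11% of all rows). DESeq2 gave 10 and limma-voom 1 at an unadjusted p under 0.05. The 11 fell to 6 without M0 vehicle 1, 3 or 4 and to 7 without M0 VLX-1005 2 or M1 VLX-1005 4. All 11 were among the 14 rows with an unadjusted p under 0.05 in M0, and the 2 tests share the M0 libraries. Choosing the rows from vehicle libraries alone would give 81 rows and from VLX-1005 libraries alone 73, of which 74 and 70 are among the 76.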

How the data were processed

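RNA of 16 BMDM libraries, 4 per group, was sequenced by the authors from strand-specific polyA libraries, aligned to mm10 and counted per gene with HTSeq. They deposited raw counts, 48440 rows in all. Trimmomatic, FastQC and DESeq2 stand in the submitters' processing notes, without versions. Strand setting and annotation release are not given in the sources used here. No column lacked a sample. Symbols and coordinates were taken from GENCODE M21 (mm10), which held 48058 of the rows.

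Groups followed the labels. Counts were filtered with filterByExpr, which left 3453 rows and all 76 members, through their M1 level. They were normalized by TMM and tested with edgeR 4.0.16 (quasi-likelihood, R 4.3.3) in 1 model that held all 16 libraries, and p was adjusted over all rows tested by Benjamini-Hochberg. CPM in the text used column totals. No 2 replicate libraries were alike within sampling noise (a chi-square of 2.72 to 8.45 per degree of freedom). The depth (939584 to 1158095 counts assigned to rows, not reads sequenced) limits precision for rows of few counts. The scripts were tested on simulated data. Alternatives were DESeq2 1.42.0, limma-voom (limma 3.58.1), RLE and upper quartile normalization, other filters and thresholds, a replicate block, fits of only the groups compared, and leaving out libraries.

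The members, gene lists and tests were chosen with earlier results of these data known. Named rows were the 12 of highest M1 level, up to 3 per list, those beside the thresholds, the 6 of smallest p for VLX-1005 in M1, the 3 most and 3 least variable in M1, and the genes on the other strand. Other named rows (such as Tlr1, Xcr1, Plgrkt and Ly6a) were chosen after their values were seen. Python 3.11.15 and matplotlib 3.10.9 drew the figures.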

Additional observations from a re-analysis of the deposited data

Results flagged for a closer look

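In 96 groups of 4 libraries with a mean of at least 10 counts, 4 held a library that lay far from the other 3 by Dixon's test, and chance gives about 1 in 20 groups. The 6530409C15Rik row was at 87.7 CPM in M0 vehicle 3, against 60.3 to 64.1 CPM in the other M0 vehicle libraries. M0 vehicle 3 was also among the libraries apart on the second principal component, and its part in this value was not tested. Gm29233, opposite Thbs1, was at 4058 CPM in M1 vehicle 1, against 5028 to 5110.4 CPM in the other M1 vehicle libraries. Gbp7 was at 37.1 CPM in the same M1 vehicle 1, against 24.8 to 26.7 CPM. Gm5692, opposite Ms4a4c, was at 221 CPM in M1 vehicle 4, against 253 to 258 CPM.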

How the results depend on the processing

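The log2 differences of the 6 rows with the smallest p in M1 kept their sign under every alternative run. The median log2 difference in M1 (−0.02) turned positive without M1 vehicle 3 (0.0057), without M1 VLX-1005 2 (0.014) and for the 30 members with a mean of at least 50 counts (0.0034). No member passed an adjusted p of 0.05 under any alternative in M1, in M0 or in the interaction. At an unadjusted p under 0.05 together with a fold change over 2, in place of the adjusted p, 0 members passed in M1, 8 in M0 and 6 in the interaction. The rows meeting the rule (76) numbered 114 with TMM sizes, 116 with RLE sizes, 91 at a fold of 8, 57 at 15, 105 at a minimum of 10 CPM and 41 at 50 CPM, and 73 to 79 when a library was left out. The median log2 ratio of M1 to M0 (4.82) was 5.24 with an offset of 0.1, 3.83 with an offset of 2, 5.20 with TMM sizes, 5.22 with RLE sizes and 4.71 to 4.98 without single libraries. The members' share of counts was, with TMM sizes, 0.367% in M0 vehicle, 0.365% in M0 VLX-1005, 6.76% in M1 vehicle and 6.61% in M1 VLX-1005. With RLE sizes the shares were 0.362%, 0.360%, 6.85% and 6.70%, and without A930037H05Rik 0.225%, 0.227%, 3.55% and 3.54%, in the same order. Leaving out A930037H05Rik, leaving out the 3 M0 libraries apart on the second component, and leaving out single libraries from the shares and from the median ratio were chosen after seeing the data. The count of members with an unadjusted p under 0.05 in M0 (14) was 7 without M0 vehicle 3 or M0 vehicle 4, 8 without M0 vehicle 1 or M0 VLX-1005 2, and 9 without M0 VLX-1005 1 or without the 3 libraries apart. In the interaction (11) it was 6 without M0 vehicle 1, 3 or 4, 7 without M0 VLX-1005 2 or M1 VLX-1005 4, and 8 to 12 without any other single library. In M1 that count was 1 without M1 VLX-1005 1 and 0 without any other M1 library. Same-numbered libraries deviated together in 2 of 24 pairs (correlation over 0.1, range −0.0727 to 0.460), and the main test did not take the numbers as pairs. With the replicate block, 0 members were called in M1 (median log2 difference −0.02), M0 and the interaction, and 12 and 9 had an unadjusted p under 0.05 in M0 and the interaction. Between M1 vehicle and M1 VLX-1005 the same-number correlations were all above 0, from 0.0397 to 0.0909. Of the 16 libraries, 9 correlated best with a library of their own number. The number that unmatched libraries would give was not computed, so whether same-numbered libraries were matched stays unresolved. At this depth 54 of 76 rows had under 10 counts in every M0 library, so differences between treatments in M0 could not be resolved for most of them.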
